A study of Mus musculus with 15 samples.

Results

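Carotid arteries of mice deficient in Has3, which encodes a synthase of the matrix polymer hyaluronan, and of wildtype mice were profiled on expression arrays with and without ligation, and 10 genes of the response to low oxygen and of sugar breakdown are described here. The genes, Slc2a1, Slc16a3, Hk2, Pfkfb3, Pgk1, Ldha, Hif1a, Egln3, Vegfa and Adm, were chosen by name for their function, and all 10 were measured among 22180 genes. All mice were female, of the strain C57Bl/6J and 21 to 22 weeks old. The left common carotid was tied off to provoke growth of the inner vessel wall, and vessels were taken after 5 days. The groups were Has3-deficient ligated arteries (n = 3), Has3-deficient non-ligated arteries (n = 4), wildtype ligated arteries (n = 4) and wildtype non-ligated arteries (n = 4). How the Has3 allele was made, and whether each array holds a separate animal, is not given in the sources used here, so p-values measure only the spread between these samples, which may be technical.

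When oxygen is scarce, cells keep the transcription factor subunit encoded by Hif1a, which prolyl hydroxylases otherwise mark for destruction. The factor binds a short DNA core in the promoters and enhancers of its targets. Among the targets are transporters and enzymes that carry glucose through glycolysis to lactate, and secreted signals that widen vessels or start new ones. Activated macrophages and neutrophils also switch to glycolysis, with or without low oxygen. Much of the control of the factor lies in its protein, which arrays do not measure.

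The promoters are shown for 5 of the genes, since ACGTG, a form of the core of the hypoxia response element, lies in most of them. Each run holds 250 bases before to 50 bases after an annotated start, 5′ to 3′ on the gene's strand, from RefSeq on GRCm38.p6, and capitals mark ACGTG on either strand. Slc16a3 (chr11:120948817-120949116, plus strand) and Egln3 (chr12:54203825-54204124, minus strand) had the largest ligation differences. Pgk1 (chrX:106186850-106187149, plus strand) and the first of 2 Ldha windows (chr7:46845554-46845853, plus strand) are classic targets. Adm (chr7:110627407-110627706, plus strand) was the only 1 of the 10 genes without ACGTG in a window. Other forms of the core, such as GCGTG, were not counted or marked. The Adm run does hold CACGC, which is GCGTG on the other strand, so Adm is not shown to lack the core.
Slc16a3: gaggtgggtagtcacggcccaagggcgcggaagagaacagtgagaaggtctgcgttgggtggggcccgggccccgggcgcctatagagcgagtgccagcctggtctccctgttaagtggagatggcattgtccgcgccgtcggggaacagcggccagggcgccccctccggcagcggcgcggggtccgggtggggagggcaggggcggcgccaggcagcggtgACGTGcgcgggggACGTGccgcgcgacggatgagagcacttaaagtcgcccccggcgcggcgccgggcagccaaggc
Egln3: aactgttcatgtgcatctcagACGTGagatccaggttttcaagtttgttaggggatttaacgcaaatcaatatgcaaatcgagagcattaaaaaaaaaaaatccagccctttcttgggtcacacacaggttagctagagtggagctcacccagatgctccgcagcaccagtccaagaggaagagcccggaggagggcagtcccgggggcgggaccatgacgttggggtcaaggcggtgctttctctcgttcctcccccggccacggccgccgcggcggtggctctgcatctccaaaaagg
Pgk1: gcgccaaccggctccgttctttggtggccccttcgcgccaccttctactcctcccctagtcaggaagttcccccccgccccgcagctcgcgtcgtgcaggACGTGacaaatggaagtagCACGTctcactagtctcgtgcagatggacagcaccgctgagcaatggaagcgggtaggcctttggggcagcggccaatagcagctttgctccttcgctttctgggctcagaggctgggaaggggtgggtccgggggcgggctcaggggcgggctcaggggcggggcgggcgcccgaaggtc
Ldha: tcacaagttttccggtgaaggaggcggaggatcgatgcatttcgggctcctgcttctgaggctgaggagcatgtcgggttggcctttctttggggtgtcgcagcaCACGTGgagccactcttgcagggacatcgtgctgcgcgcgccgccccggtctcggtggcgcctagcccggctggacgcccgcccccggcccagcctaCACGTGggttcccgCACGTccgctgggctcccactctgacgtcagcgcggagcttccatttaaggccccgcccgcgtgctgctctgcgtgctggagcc
Adm: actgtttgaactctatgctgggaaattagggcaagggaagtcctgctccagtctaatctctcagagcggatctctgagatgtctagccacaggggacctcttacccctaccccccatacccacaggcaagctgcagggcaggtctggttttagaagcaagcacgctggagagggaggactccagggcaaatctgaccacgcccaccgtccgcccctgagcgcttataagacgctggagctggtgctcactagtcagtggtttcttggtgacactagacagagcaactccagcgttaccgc
In Slc16a3 ACGTG starts 27 and 14 bases before the start of transcription, and in Egln3 it starts 229 bases before. A search of both strands found ACGTG in 9 of the 10 genes and in 10 of their 13 windows. Vegfa counts only through the second of its 2 windows (chr17:46025114-46025413, minus strand). That window surrounds a start downstream of the first, and the first window (chr17:46032328-46032627) held no match. Of 27025 genes with a window 21.8% held ACGTG. Of 32851 windows of all genes 19.6% held it, and of the 14281 windows with 10 or more CG pairs 28.0% did. The palindrome CACGTG, which is also an E-box and is read here on both strands, gives 2 of the 3 marked places in Ldha. A match describes letters in a window, not binding.

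The deposited values are log2 values from which the median of each probe set over the 15 arrays was subtracted. They therefore give differences between arrays and not levels, genes cannot be ranked by level, and the labelled tissue cannot be checked by the presence of its markers. Has3, the targeted gene, lay at -0.23, -0.01 and 0.10 in Has3-deficient ligated arteries, against -0.08, 0.13, 0.58 and 0.01 in wildtype ligated arteries. In non-ligated arteries it lay between -0.08 and 0.41 in the Has3-deficient group and between -0.08 and 0.22 in the wildtype group. These groups overlapped, with differences of -0.20 ± 0.16 in ligated arteries (adjusted p = 1) and 0.09 ± 0.14 in non-ligated arteries (adjusted p = 0.853; limma, here and below ± standard error). Where this probe set lies relative to the alteration in the gene is unknown, and it does not check the genotype labels. In non-ligated arteries 3 arrays stood apart by markers of sympathetic neurons, Has3-deficient replicates 3 and 4 (means of 7 markers 4.80 and 2.13) and wildtype replicate 2 (2.80). In 2 arrays fat markers were high, Has3-deficient non-ligated replicate 4 (mean of 7 markers 1.81) and wildtype non-ligated replicate 1 (1.59). No 2 arrays were duplicates, the highest correlation between arrays being 0.847.

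Ligation moved most of the 10 genes. In Has3-deficient arteries 6 rose and none fell, and in wildtype arteries 7 rose and Adm fell, taking p-values from limma adjusted by Benjamini-Hochberg across all genes and a threshold of 0.05. Of all genes 18.3% passed in Has3-deficient arteries (10.2% higher, 8.08% lower) and 27.8% in wildtype arteries (13.2% higher, 14.6% lower). The median difference of the 10 genes was 0.88 log2 units in Has3-deficient arteries, where that of all genes was -0.03, and 0.88 in wildtype arteries, where that of all genes was 0.0055. Ligated and non-ligated arrays did not overlap for 7 of the 10 genes in Has3-deficient mice, against 26.3% of all genes, and for 8 of the 10 in wildtype mice, against 30.0%.

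**Figure D1:**
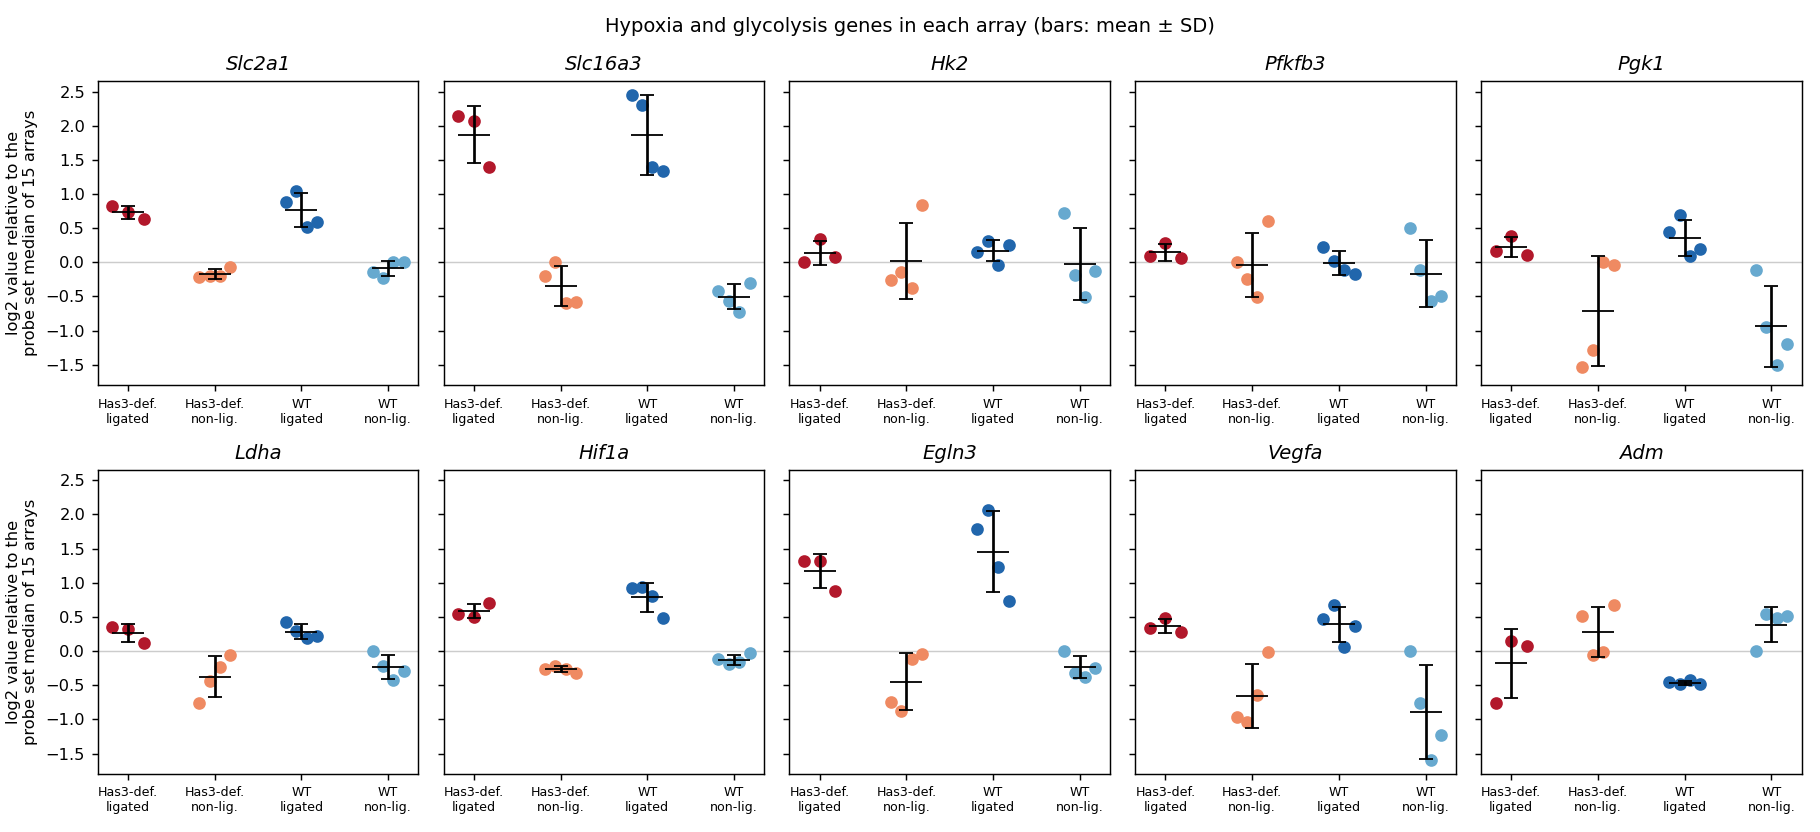
Log2 value of each of the 10 genes in each array, relative to the probe set's median over 15 arrays (vertical axis), in Has3-deficient ligated (n = 3), Has3-deficient non-ligated, wildtype ligated and wildtype non-ligated arteries (n = 4 each). Points are arrays and bars the mean ± SD. Slc16a3 lies at or above 1.33 in every ligated array and at or below 0.00 in every non-ligated one, while Hk2 overlaps in both genotypes and Adm is lower in ligated wildtype arteries.

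The 2 transporters both rose with ligation. Slc16a3, which exports lactate from glycolytic cells, lay at 2.15, 2.06 and 1.40 in Has3-deficient ligated arteries, against -0.20, 0.00, -0.59 and -0.58 in Has3-deficient non-ligated arteries. In wildtype mice it lay at 2.44, 2.30, 1.40 and 1.33 in ligated arteries, against -0.42, -0.56, -0.73 and -0.30 in non-ligated arteries. All ligated arrays were above all non-ligated ones, and replicates 1 and 2 of the ligated wildtype group were higher than replicates 3 and 4. The difference was 2.21 ± 0.27 log2 units in Has3-deficient arteries (4.64-fold, adjusted p = 4.69e-05) and 2.37 ± 0.25 in wildtype arteries (5.17-fold, adjusted p = 7.61e-06), the largest among the 10 genes in each genotype. Slc2a1, the glucose importer of most tissues, lay at 0.83, 0.73 and 0.64 in Has3-deficient ligated arteries, against -0.22, -0.20, -0.20 and -0.07 in non-ligated ones. Its wildtype values were 0.89, 1.05, 0.52 and 0.60 in ligated arteries, against -0.14, -0.22, 0.00 and 0.00 in non-ligated arteries. Again no ligated array fell among the non-ligated ones. Slc2a1 rose by 0.91 ± 0.11 in Has3-deficient arteries (1.87-fold, adjusted p = 4.36e-05) and by 0.85 ± 0.10 in wildtype arteries (1.80-fold, adjusted p = 2.25e-05). Its value is the mean of 2 probe sets that differed in size: 1 changed by 1.46 in Has3-deficient and 1.44 in wildtype arteries, the other by 0.35 in Has3-deficient and 0.27 in wildtype arteries.

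Of the 4 glycolysis enzymes, Ldha rose in both genotypes, Pgk1 in wildtype arteries alone by the test, and the 2 that act early, Hk2 and Pfkfb3, in neither. Ldha, which turns pyruvate into lactate, lay at 0.36, 0.33 and 0.11 in Has3-deficient ligated arteries, against -0.76, -0.44, -0.23 and -0.06 in non-ligated ones. In wildtype mice Ldha lay at 0.43, 0.29, 0.19 and 0.22 in ligated arteries, against 0.00, -0.22, -0.42 and -0.30 in non-ligated ones. The groups did not overlap in either genotype, and Ldha rose by 0.64 ± 0.14 in Has3-deficient arteries (1.56-fold, adjusted p = 0.00543) and by 0.52 ± 0.13 in wildtype arteries (1.43-fold, adjusted p = 0.00787). Pgk1, the first ATP-making enzyme of the pathway, lay at 0.16, 0.39 and 0.11 in Has3-deficient ligated arteries, against -1.53, -1.28, 0.00 and -0.05 in non-ligated ones. In wildtype mice it lay at 0.45, 0.69, 0.09 and 0.20 in ligated arteries, against -0.11, -0.95, -1.50 and -1.19 in non-ligated arteries. Ligated arrays lay close together while the non-ligated ones spread over more than a log2 unit, with Has3-deficient replicates 3 and 4 and wildtype replicate 1 near the ligated arrays. In Has3-deficient arteries the difference was 0.94 ± 0.38 and did not pass (adjusted p = 0.109), although the groups did not overlap. Pgk1 rose by 1.29 ± 0.35 in wildtype arteries (2.45-fold, adjusted p = 0.0117). The Has3-deficient difference passed without Has3-deficient non-ligated replicate 3 (1.17, adjusted p = 0.0385) or replicate 4 (1.16, adjusted p = 0.0491).

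Hk2, which traps glucose in the cell by phosphorylating it, lay at 0.00, 0.33 and 0.08 in Has3-deficient ligated arteries, against -0.25, -0.14, -0.38 and 0.84 in non-ligated ones. In wildtype mice Hk2 lay at 0.15, 0.32, -0.03 and 0.25 in ligated arteries, against 0.72, -0.19, -0.50 and -0.13 in non-ligated ones. In each genotype a single non-ligated array exceeded every ligated one and the other 3 lay lower. The differences, 0.12 ± 0.29 in Has3-deficient arteries (adjusted p = 0.839) and 0.19 ± 0.26 in wildtype arteries (adjusted p = 0.68), had 95% intervals of -0.49 to 0.74 and -0.38 to 0.76. Pfkfb3 makes the sugar phosphate that activates phosphofructokinase. It lay at 0.09, 0.29 and 0.06 in Has3-deficient ligated arteries, against 0.00, -0.24, -0.51 and 0.60 in non-ligated ones. Wildtype values of Pfkfb3 were 0.22, 0.01, -0.11 and -0.18 in ligated arteries, against 0.50, -0.11, -0.56 and -0.49 in non-ligated ones. The same 2 non-ligated arrays as for Hk2 were the highest. Its differences were 0.18 ± 0.26 in Has3-deficient (adjusted p = 0.708) and 0.15 ± 0.24 in wildtype arteries (adjusted p = 0.722), with intervals of -0.37 to 0.73 and -0.36 to 0.66.

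The transcription factor subunit and its hydroxylase rose together. Hif1a lay at 0.55, 0.50 and 0.71 in Has3-deficient ligated arteries, against -0.26, -0.22, -0.27 and -0.32 in non-ligated ones. In wildtype mice it lay at 0.92, 0.94, 0.81 and 0.48 in ligated arteries, against -0.12, -0.19, -0.16 and -0.03 in non-ligated arteries. The 8 non-ligated arrays lay within a narrow band below 0, and every ligated array was above it. Hif1a rose by 0.85 ± 0.10 in Has3-deficient arteries (1.80-fold, adjusted p = 1.89e-05) and by 0.92 ± 0.09 in wildtype arteries (1.89-fold, adjusted p = 3.03e-06). It is the mean of 2 probe sets, which changed by 1.10 and 0.60 in Has3-deficient and by 1.03 and 0.80 in wildtype arteries. Egln3, a prolyl hydroxylase that marks the factor for destruction and is itself a target of it, lay at 1.32, 1.32 and 0.88 in Has3-deficient ligated arteries, against -0.75, -0.87, -0.12 and -0.05 in non-ligated ones. Its wildtype values were 1.79, 2.06, 1.24 and 0.73 in ligated arteries, against 0.00, -0.32, -0.38 and -0.25 in non-ligated arteries. Ligated arrays were all higher, with the widest spread among ligated wildtype arteries (SD 0.59). Egln3 rose by 1.62 ± 0.28 in Has3-deficient arteries (3.07-fold, adjusted p = 0.000849) and by 1.69 ± 0.26 in wildtype arteries (3.23-fold, adjusted p = 0.000182).

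Of the 2 secreted signals, Vegfa rose in both genotypes and Adm fell in wildtype arteries. Vegfa, the main growth factor for endothelial cells, lay at 0.34, 0.49 and 0.28 in Has3-deficient ligated arteries, against -0.96, -1.04, -0.64 and -0.01 in non-ligated ones. In wildtype mice Vegfa lay at 0.46, 0.67, 0.06 and 0.36 in ligated arteries, against 0.00, -0.77, -1.59 and -1.22 in non-ligated ones. The groups did not overlap, and 1 non-ligated array of each genotype came close to the ligated ones. Vegfa rose by 1.03 ± 0.31 in Has3-deficient arteries (2.04-fold, adjusted p = 0.035) and by 1.29 ± 0.29 in wildtype arteries (2.44-fold, adjusted p = 0.00394). The Has3-deficient call was lost in 6 of 7 fits that left out 1 array. The difference was then 0.93 without non-ligated replicate 1 (adjusted p = 0.0891), 0.90 without replicate 2 (0.0884), 1.04 without replicate 3 (0.0509), and 1.04, 0.97 and 1.08 without ligated replicates 3, 5 and 6 (0.0918, 0.111 and 0.0743). Without non-ligated replicate 4 it was 1.25 (adjusted p = 0.0112).

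Adm encodes adrenomedullin, a peptide that widens vessels and is a known target of the factor. It lay at -0.76, 0.15 and 0.08 in Has3-deficient ligated arteries, against 0.52, -0.06, -0.01 and 0.67 in non-ligated ones. In wildtype mice Adm lay at -0.46, -0.49, -0.43 and -0.49 in ligated arteries, against 0.00, 0.54, 0.49 and 0.52 in non-ligated ones. Wildtype groups were fully apart while Has3-deficient groups overlapped. The Has3-deficient difference of Adm, -0.46 ± 0.22, did not pass (adjusted p = 0.191, interval -0.93 to 0.02). Adm fell by 0.85 ± 0.21 in wildtype arteries (1.81-fold lower, adjusted p = 0.00587). The difference between these ligation responses did not pass either (0.40 ± 0.30, adjusted p = 0.765).

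Genotype made no difference that passed. In ligated arteries the differences ran from -0.28 for Egln3 (interval -0.88 to 0.32) to 0.29 for Adm (interval -0.19 to 0.76). None of the 10 genes passed, in a comparison where limma called 0% of all genes (0 of 22180, with 4.10% at an unadjusted p under 0.05 and a lowest adjusted p of 0.368). No member separated the groups, against 6.90% of all genes. In non-ligated arteries 0.0857% of all genes passed (13.4% at an unadjusted p under 0.05) and none of the 10 did. There Hif1a came nearest, and all Has3-deficient arrays lay below all wildtype ones (-0.14 ± 0.09, adjusted p = 0.528), as the only 1 of the 10 without overlap, against 6.22% of all genes. The ligation responses of the genotypes did not differ past the test for any of the 10 or for any of all genes (0%, with 8.12% at an unadjusted p under 0.05). Among the 10, the interval of this difference was widest for Pgk1 (-1.46 to 0.74) and Vegfa (-1.18 to 0.67) and narrowest for Hif1a (-0.34 to 0.21). A fit with array weights, and a fit of the ligated arteries alone, each called 1 gene between the genotypes in ligated arteries, which was none of the 10.

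**Figure D2:**
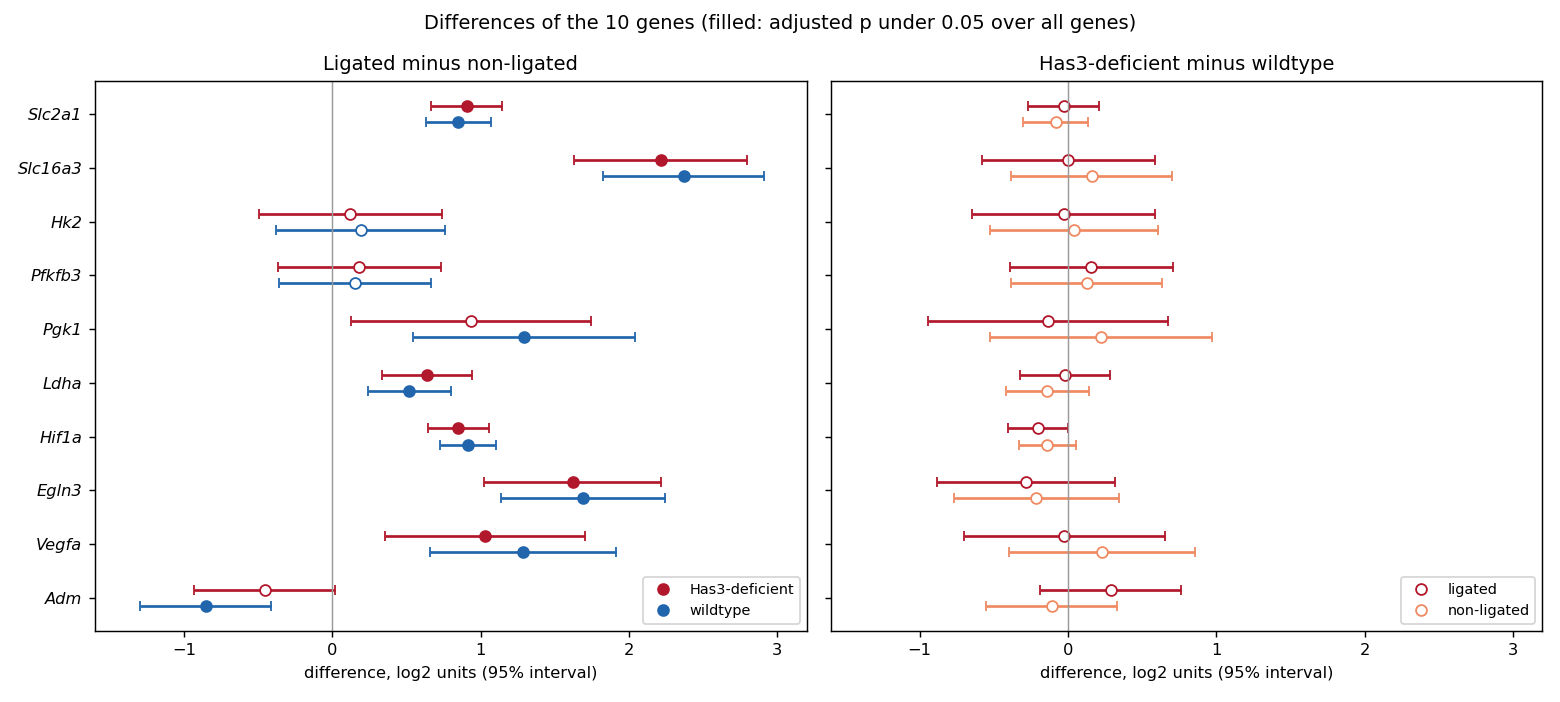
Differences of the 10 genes in log2 units with 95% intervals (horizontal axis), ligated minus non-ligated on the left for Has3-deficient and wildtype arteries, and Has3-deficient minus wildtype on the right for ligated and non-ligated arteries. Filled points passed an adjusted p of 0.05 over all genes. On the left 6 Has3-deficient and 8 wildtype points are filled, and on the right none is.

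Other genes of the same pathways were read from 5 lists by function. The lists overlap and shared genes are counted in each. Pfkfb4 is in the lists of glycolysis enzymes and hypoxia targets, and Cited2 in those of oxygen sensing and hypoxia targets. Kdr is both in the VEGF list and among the endothelial markers below. Each count is to be read against the shares of all genes given above, 10.2% higher and 8.08% lower in Has3-deficient arteries and 13.2% higher and 14.6% lower in wildtype arteries. Of 18 measured glycolysis enzymes beside the members, 2 rose and 1 fell in Has3-deficient arteries, a share near that of all genes, and 5 rose and 2 fell in wildtype arteries. Without Has3-deficient non-ligated replicate 4 there were 2 lower genes. Without wildtype non-ligated replicate 2, ligated replicate 3 or ligated replicate 4 there was 1. The wildtype count of higher genes ran from 4 to 7 over the fits that left out 1 array. Hk3, the hexokinase of myeloid cells, rose by 1.45 in Has3-deficient and 1.72 in wildtype arteries. Pfkfb4, a relative of Pfkfb3, rose by 0.85 in Has3-deficient and 0.97 in wildtype arteries. Tpi1 (0.73) and Pkm (0.61), enzymes of the later steps, rose in wildtype arteries. The muscle phosphofructokinase Pfkm fell by 0.91 in Has3-deficient and 0.75 in wildtype arteries. Pfkfb2 fell by 0.24 in wildtype arteries, and did not pass without non-ligated replicate 2 (-0.19) or ligated replicate 3 or 4 (-0.22 and -0.20). Gapdh did not pass (0.29 in Has3-deficient and 0.37 in wildtype arteries).

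A second list held genes that carry glucose and lactate or steer pyruvate towards the mitochondria. Of its 18 measured genes 1 rose and 4 fell in Has3-deficient arteries, and 1 rose and 9 fell in wildtype arteries, against 8.08% and 14.6% of all genes lower. The Has3-deficient count of 4 lower genes fell to 1 without non-ligated replicate 4 or ligated replicate 3 and to 2 without ligated replicate 6, and without non-ligated replicate 3 there were 2 higher genes. The wildtype count of lower genes ran from 7 to 9 over the fits that left out 1 array. The glucose transporter Slc2a6 rose by 1.55 in Has3-deficient and 1.65 in wildtype arteries. Slc2a4, the insulin-responsive transporter of fat and muscle, stood at -0.62 in Has3-deficient arteries, which did not pass, and fell by 1.38 in wildtype arteries. Pdk4, a kinase that inhibits pyruvate dehydrogenase, fell by 1.66 in wildtype arteries. Without wildtype non-ligated replicate 1, the array high in fat markers, it stood at -1.19 and did not pass, nor did it pass without ligated replicate 1 (-1.61) or 2 (-1.49). Pdha1, a subunit of pyruvate dehydrogenase, fell by 1.11 in wildtype arteries, and did not pass without non-ligated replicate 1 (-0.83) or ligated replicate 3 (-0.98). Pdk2, a relative of Pdk4, fell by 0.77 in Has3-deficient and by 1.01 in wildtype arteries. Its Has3-deficient call was lost without non-ligated replicate 4 or ligated replicate 3 (-0.65 in each case). Pdk1, a target of the factor, was at 0.17 in Has3-deficient and 0.12 in wildtype arteries and did not pass.

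Among 13 measured genes of oxygen sensing none rose, and 3 fell in each genotype, against 8.08% of all genes lower in Has3-deficient and 14.6% in wildtype arteries. The count of lower genes was 2 without Has3-deficient non-ligated replicate 1 or ligated replicate 3 or 5, and 2 without wildtype non-ligated replicate 2, 3 or 4 or ligated replicate 1, 2 or 4. Without wildtype non-ligated replicate 4, 1 gene was higher. Epas1, the related factor subunit of endothelial cells, fell by 0.90 in Has3-deficient and by 1.09 in wildtype arteries, where Hif1a rose. P4htm, a membrane-bound prolyl hydroxylase, fell by 0.68 in Has3-deficient and by 0.71 in wildtype arteries. The other 2 were less stable. Hif3a fell by 0.38 in wildtype arteries, and failed to pass without non-ligated replicate 2, 3 or 4 or ligated replicate 1, 2 or 4 (-0.40 to -0.32). Hif1an, the asparagine hydroxylase of the factor, fell by 0.32 in Has3-deficient arteries and failed to pass without non-ligated replicate 1 or 2 or ligated replicate 3 or 5 (-0.31 to -0.28). The relatives of Egln3 did not pass: Egln1 stood at -0.28 in Has3-deficient and -0.29 in wildtype arteries, and Egln2 at -0.06 in Has3-deficient and 0.13 in wildtype arteries.

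Of 24 other known hypoxia targets measured, 8 rose and 4 fell in Has3-deficient arteries, and 11 rose and 4 fell in wildtype arteries, against 10.2% higher and 8.08% lower of all genes in Has3-deficient and 13.2% and 14.6% in wildtype arteries. Without Has3-deficient ligated replicate 3 the 4 lower genes became 2. Over the fits that left out 1 array, the higher genes ran from 6 to 8 in Has3-deficient and from 9 to 11 in wildtype arteries. Hmox1, which breaks down heme and responds to oxidative stress as well, rose by 3.30 in Has3-deficient and by 3.55 in wildtype arteries. Plin2, a coat protein of lipid droplets, rose by 1.81 in Has3-deficient and by 1.63 in wildtype arteries. Angptl4, an inhibitor of lipoprotein lipase, rose by 1.78 in Has3-deficient and by 1.40 in wildtype arteries. Vldlr, a lipoprotein receptor, fell by 1.12 in Has3-deficient and by 1.62 in wildtype arteries, and Rora, a nuclear receptor, by 0.64 in Has3-deficient and by 0.79 in wildtype arteries. Car9 (-0.02 in Has3-deficient and -0.10 in wildtype arteries) and Bnip3 (0.55 in Has3-deficient and 0.37 in wildtype arteries), both often used as hypoxia markers, did not pass.

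Of 15 ligands and receptors of the VEGF and adrenomedullin families, 3 rose and 1 fell in Has3-deficient arteries, and 5 rose and 4 fell in wildtype arteries, against 10.2% higher and 8.08% lower of all genes in Has3-deficient and 13.2% and 14.6% in wildtype arteries. In Has3-deficient arteries 1 gene was higher without non-ligated replicate 1 or ligated replicate 3 or 5, and 2 without non-ligated replicate 2 or 3 or ligated replicate 6 (3 otherwise). None was lower there without non-ligated replicate 4 or ligated replicate 5 or 6, and 2 were without non-ligated replicate 3. In wildtype arteries 3 were higher without non-ligated replicate 3 or 4. Nrp2, a co-receptor, rose by 1.22 in Has3-deficient and by 1.66 in wildtype arteries. Kdr, the main signalling receptor of Vegfa, rose by 1.19 in Has3-deficient and by 1.15 in wildtype arteries. The wildtype call of Kdr was lost without non-ligated replicate 3 (0.94) or 4 (1.02) or ligated replicate 3 (1.01). Its Has3-deficient call was lost in every fit that left out 1 Has3-deficient array, except non-ligated replicate 4 (0.85 to 1.26 where lost). Vegfb, a relative of Vegfa, fell by 0.50 in Has3-deficient and by 0.59 in wildtype arteries, and its Has3-deficient call was lost without non-ligated replicate 4 or any 1 ligated array (-0.54 to -0.42). Calcrl, the receptor of adrenomedullin, did not pass (0.31 in Has3-deficient and 0.03 in wildtype arteries). Of the partners of Calcrl, Ramp1 fell by 0.79 and Ramp2 by 0.42 in wildtype arteries. Ramp3 rose by 0.27 in Has3-deficient and by 0.33 in wildtype arteries. The call of Ramp2 was lost without wildtype non-ligated replicate 2, 3 or 4 or ligated replicate 1, 2 or 4. The Has3-deficient call of Ramp3 was lost without non-ligated replicate 1 or 4 or ligated replicate 3 or 5. No gene of the 5 lists passed in the genotype comparisons or in the difference of the ligation responses.

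**Figure D3:**
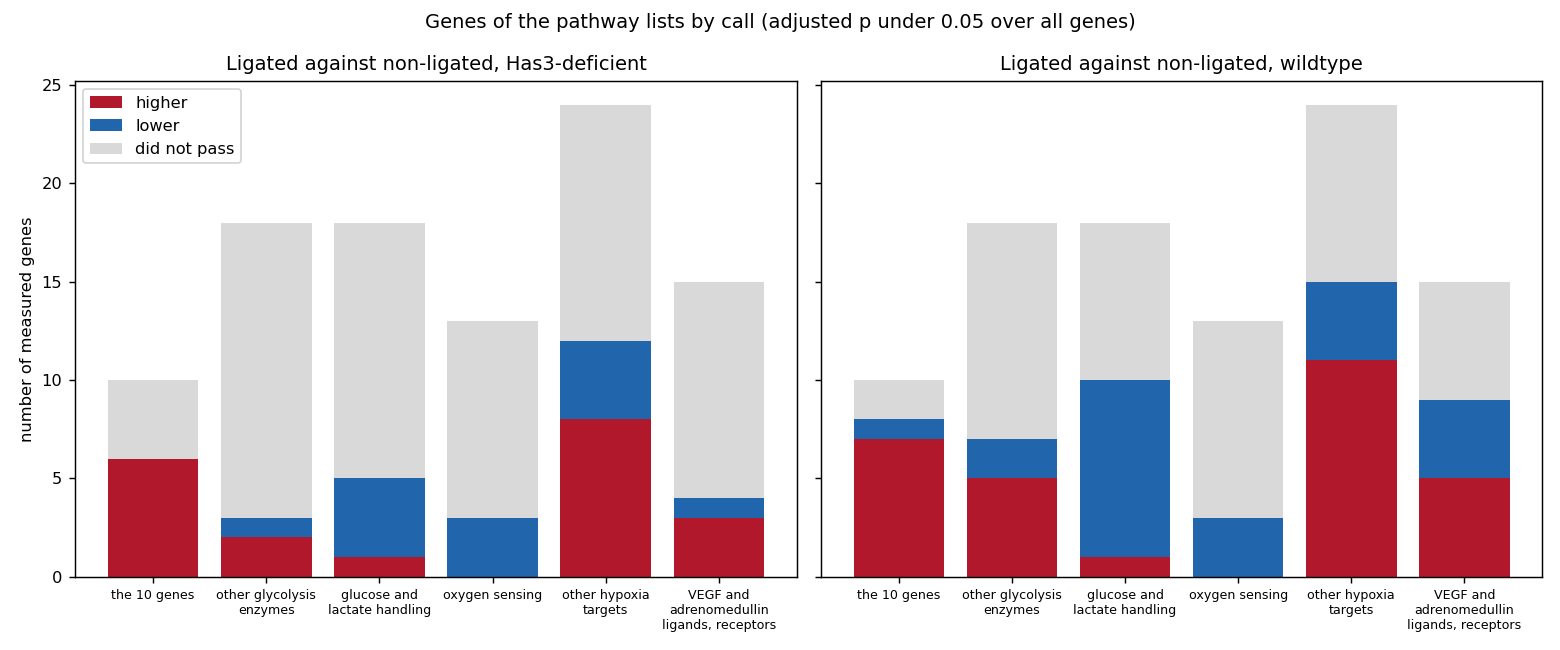
Number of measured genes (vertical axis) that were higher, lower or did not pass in ligated against non-ligated arteries, for the 10 genes and the 5 pathway lists, in Has3-deficient arteries on the left and wildtype arteries on the right. The other hypoxia targets hold 8 higher and 4 lower genes of 24 in Has3-deficient arteries and 11 higher and 4 lower in wildtype arteries, and the oxygen sensing genes hold 3 lower and none higher in each.

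Markers of other cell types moved with ligation as well. All 8 macrophage markers rose in each genotype, with array means of 2.27 to 2.56 in Has3-deficient ligated arteries, against -1.18 to -0.14 in non-ligated ones, and of 2.38 to 2.77 in wildtype ligated arteries, against -0.73 to -0.24 in non-ligated ones. All 8 neutrophil markers and all 7 measured markers of dividing cells rose too. Smooth muscle markers fell, 8 of 8 in Has3-deficient and 7 of 8 in wildtype arteries. Of 7 fat markers 3 fell in wildtype arteries (mean difference -1.23) and none passed in Has3-deficient arteries (mean -0.34). Of 8 endothelial markers 3 rose and 2 fell in Has3-deficient arteries, and 3 rose and 3 fell in wildtype arteries. Of 8 adventitial fibroblast markers 3 rose and 3 fell in Has3-deficient arteries, and 1 rose and 4 fell in wildtype arteries. In whole arteries more cells of a type and more RNA per cell cannot be told apart. The part of these cell types in the differences of the 10 genes was not tested.

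Within groups the 10 genes did not vary as a block. Over the 45 pairs of genes, the correlation of deviations from the group means over the 15 arrays was positive in 33, with a median r of 0.213. It was highest between Hk2 and Pfkfb3 (r = 0.886), Pgk1 and Ldha (0.882), and Hk2 and Vegfa (0.876). All genes were read from the same 15 arrays, so the values describe these arrays and are no test. With the macrophage marker mean, r was 0.928 for Ldha, 0.837 for Pgk1, 0.724 for Vegfa, 0.715 for Egln3, 0.618 for Hk2 and 0.588 for Pfkfb3, and near 0 for Hif1a (0.004) and Slc16a3 (0.04). With the fat marker mean it was 0.709 for Hk2, 0.676 for Vegfa, 0.618 for Pgk1, 0.545 for Pfkfb3 and -0.583 for Slc16a3. With the skeletal muscle marker mean it was 0.683 for Pfkfb3, 0.643 for Hk2, 0.561 for Adm and 0.51 for Vegfa. With the mean of the dividing cell markers it was 0.695 for Hif1a, and from -0.341 (Adm) to 0.35 (Egln3) for the others. With the neutrophil marker mean it was 0.569 for Egln3 and 0.522 for Slc2a1. With the smooth muscle marker mean it was -0.678 for Egln3, -0.583 for Pgk1 and -0.529 for Ldha. For several genes, then, the marker means of more than 1 cell type ran with the deviations.

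The 2 arrays high in fat markers held the highest non-ligated values of Hk2, Pfkfb3, Vegfa and Ldha in their groups. They also had the highest macrophage marker means of their groups (-0.14 for Has3-deficient replicate 4 and -0.24 for wildtype replicate 1). Has3-deficient replicate 4 was highest in skeletal muscle markers too (mean of 8 markers 0.87, against at most 0.07 in the other 3 arrays of its group), and the part of these tissues in the values was not tested. The SD of Hk2 was 0.17 in Has3-deficient ligated arteries, against 0.56 in non-ligated ones, and 0.15 in wildtype ligated arteries, against 0.52 in non-ligated ones. With both arrays left out, a choice made after the data were seen, Hk2 passed as higher in ligated arteries of both genotypes (0.40, adjusted p = 0.0456 in Has3-deficient and 0.44, adjusted p = 0.0142 in wildtype arteries). With only the 1 such array of its own genotype left out, the differences of Hk2 were the same 0.40 and 0.44 and did not pass (adjusted p = 0.287 in Has3-deficient and 0.21 in wildtype arteries). Pfkfb3 did not pass even without both (0.40, adjusted p = 0.0972 in Has3-deficient and 0.38, adjusted p = 0.0737 in wildtype arteries). Pgk1 passed in Has3-deficient arteries without both (1.16, adjusted p = 0.0244). In all, 8 of the 10 genes then passed in Has3-deficient arteries, where 18.8% of all genes did, and 9 in wildtype arteries, where 26.6% did. Without the 3 arrays high in sympathetic neuron markers, 7 passed in Has3-deficient arteries (21.6% of all genes), Pgk1 among them (1.63, adjusted p = 0.00347), and 8 in wildtype arteries (28.5% of all genes). Some counts of the pathway lists moved as well. In Has3-deficient arteries 5 other glycolysis enzymes were higher and 2 lower without the arrays high in fat markers, and 6 were higher and 2 lower without those high in neuron markers. Of the glucose and lactate genes there, 2 were higher in either fit, and 4 were lower without the first set of arrays and 1 without the second. In wildtype arteries 2 of these genes were higher in either fit. Without the arrays high in neuron markers 5 oxygen sensing genes were lower in Has3-deficient arteries, and in either fit 2 of the VEGF and adrenomedullin genes were. In wildtype arteries 3 other glycolysis enzymes were lower without the arrays high in neuron markers.

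**Figure D4:**
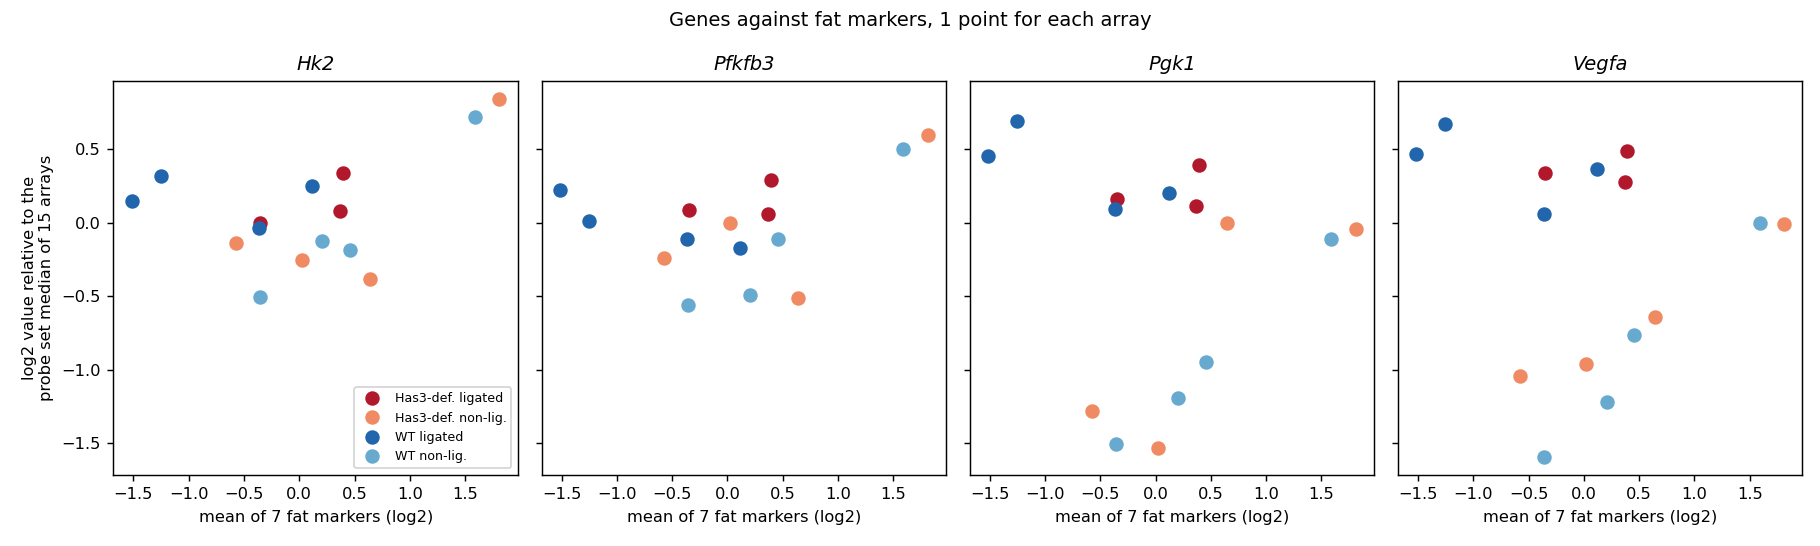
Log2 value of Hk2, Pfkfb3, Pgk1 and Vegfa relative to the probe set's median over 15 arrays (vertical axes) against the mean of 7 fat markers (horizontal axis, log2), with 1 point for each Has3-deficient ligated, Has3-deficient non-ligated, wildtype ligated and wildtype non-ligated array. The 2 non-ligated arrays at fat means of 1.81 and 1.59 lie at 0.84 and 0.72 for Hk2, above all other arrays.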

How the data were processed

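RNA of 15 arteries (100 ng each) was labelled with the Affymetrix WT Plus kit and hybridised to 1 array each, per the labels. The authors deposited 1 table of 33793 probe sets in log2 units, in which every probe set has a median of 0 over the 15 arrays. What normalization, software or build the authors used is not given in the sources used here, and log base 2 was read from the range of the values (at most 7.31 per probe set). Array medians lie within 0.0167 of 0.

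Genes came from the platform table: 23521 probe sets had 1 symbol, 1814 several and 8458 none listed. The mean over probe sets with 1 symbol gave 22180 genes. The 4 groups were fitted in 1 model with limma 3.58.1 (R 4.3.3, empirical Bayes, 11 residual and 2.69 prior degrees of freedom), 2-sided. Genes whose p, adjusted by Benjamini-Hochberg across all genes, was under 0.05 passed. The fit was tested on simulated data. The number of arrays limits the precision.

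The members, pathway lists and marker lists were chosen by function with earlier results of these data known. From each list, up to 4 passing genes of the largest change in each direction were eligible to be named. Listed genes without a probe set of 1 symbol (Aldoa, Gpi1, Eno1 and others) were not analysed here, nor were the further probe sets of Hif1a and Slc16a3 that carry several symbols. Alternatives were quantile normalization, only the 2 groups compared, a common array median, a replicate block, array weights, the probe set of widest spread, a robust prior and leaving out each array in turn. Leaving out arrays high in fat or neuron markers was added after seeing the data.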

Additional observations from a re-analysis of the deposited data

Results flagged for a closer look

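Of 30 groups of 4 arrays, 3 for each of the 10 genes, 2 held an array far from the others by Dixon's criterion, which chance meets in about 1 of 20 groups. Adm lay at 0 in wildtype non-ligated replicate 1, while the other 3 arrays of that group lay between 0.49 and 0.54, so that the gap took a share of 0.91 of the group's range. The same array was 1 of the 2 high in fat markers. Slc2a1 lay at -0.07 in Has3-deficient non-ligated replicate 4, the other array high in fat and 1 of 3 high in neuron markers, while the other 3 lay between -0.22 and -0.20 (a share of 0.845). Neither value fell among the ligated arrays of its genotype. The part of the marker signal in these values was not tested.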

How the results depend on the processing

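Of 96 values of the 6 genes called in Has3-deficient arteries under 16 alternatives, 87 kept their call, and of 136 values of the 8 called in wildtype arteries under 17 alternatives, 135 did. Of the pathway genes called, 6 of 26 in Has3-deficient and 31 of 43 in wildtype arteries kept their call in every alternative run, the replicate block included. No called value changed sign. Leaving out arrays, 5 to 8 of the 10 genes passed in Has3-deficient arteries, where 12.6% to 21.6% of all genes did. In wildtype arteries 8 to 9 passed, where 24.3% to 28.5% of all genes did. None of the 10 passed between genotypes or in the difference of responses under any alternative run. With array weights Pgk1 passed in Has3-deficient arteries (1.23, adjusted p = 0.0157). With the Slc2a1 probe set of widest spread, its difference was 1.46 in Has3-deficient and 1.44 in wildtype arteries.

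Replicate numbers were also tried as a block over all 15 arrays. Such a block also joins equal numbers of the 2 genotypes, which cannot be the same mouse. In non-ligated arteries those pairs had r of -0.401 to -0.235. Same-numbered wildtype arrays deviated together with r of 0.028 to 0.164, and 2 of 4 ligated arrays matched their own number best. The sources used here do not say whether a number marks a shared animal, and these values do not settle it, so the fit without the block was kept. The Has3-deficient groups share number 3 alone. Numbers 5 and 6 mark 1 array each, which its own block term takes up. The Has3-deficient ligated mean under the block therefore rests on replicate 3 alone. The calls of Ldha (0.77), Egln3 (1.78) and Vegfa (1.34) were lost in Has3-deficient arteries under it, which does not measure the effect of pairing. In wildtype arteries 7 of the 10 genes passed under the block, where 24.2% of all genes did, without Pgk1 (1.29 as before, adjusted p = 0.0638). The counts between genotypes and of the difference of responses stayed at 0.

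Over all genes, 4055 passed in Has3-deficient arteries without the block, and fewer under it, where the ligated mean rests on 1 array. Between non-ligated genotypes 19 genes passed, against 43 with quantile normalization, 9 with array weights, 7 with the probe set of widest spread and 0 under the block or with only the 2 groups. Leaving out 1 array gave 0 to 280 genes there, the 280 without Has3-deficient replicate 4. Centring removed the signal over background, so a weak probe set cannot be told from a strong one. With 3 or 4 arrays in a group, the interval of the Pgk1 genotype difference in ligated arteries ran from -0.94 to 0.67.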

Other observations

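For each of the 10 genes, the gene with the closest deviations from the group means over the 15 arrays was sought among 19385 genes with a name other than a predicted one. Ldha was followed most closely by Adam8, a membrane protease of activated leukocytes (r = 0.978), which itself was higher in ligated arteries by 4.02 log2 units in Has3-deficient and 4.23 in wildtype mice. Egln3 was followed by Wfdc17, a gene of myeloid cells (r = 0.921), and Slc16a3 by Card19 (r = 0.908). Hk2 was followed by Cox4i1, a subunit of the mitochondrial cytochrome c oxidase (r = 0.98), Pgk1 by the proteasome subunit Psmb4 (0.952) and Vegfa by the lipase Abhd6 (0.945). The nearest genes of the other 4 were Flacc1 for Pfkfb3 (0.932), Sos2 for Adm (0.902), Znrd1 for Slc2a1 (0.901) and Cdkn2aip for Hif1a (0.88). Not all nearest genes were higher in ligated arteries. Wfdc17 (2.37 in Has3-deficient, 2.05 in wildtype) and Card19 (1.02, 1.15) were. Psmb4 (-0.001, -0.009) and Znrd1 (-0.003, 0.02) stood near 0. Cox4i1 (-0.34, -0.39), Abhd6 (-0.49, -0.93) and Cdkn2aip (-0.18, -0.41) were lower, as were Sos2 (-0.09, -0.32) and Flacc1 (-0.07, -0.21). Each is the highest of many values over the same 15 arrays, so they describe these arrays and are no test.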
